A study of Arabidopsis thaliana with 20 samples.

Results

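SPCH, MUTE, FAMA, SCRM, SCRM2, TMM, EPF1, EPF2, EPFL9 and BASL, the genes that start, order and space the divisions of the stomatal lineage in the leaf epidermis, were followed through RNA-seq libraries of Arabidopsis thaliana shoots. The genes were chosen by name for their known roles, with earlier results of these data known. They were found by locus identifier, and all 10 were among the 32833 genes of the count table. The 20 libraries were made from aerial tissue of seedlings grown on agar medium, in a study of the balance between growth and defence in autoimmune plants and of the part that the ADR1 helper receptors play in it. DM1-DM2d (n = 3) and DM6-DM7 (n = 3) are autoimmune lines, made by transforming Col-0 with pairs of DANGEROUS MIX genes, which encode immune receptors or act on them. DM1-DM2d was harvested 12 days after sowing (DAS) with Col-0 wild type of that age (n = 2) in batch 1. DM6-DM7 was harvested at 14 DAS with Col-0 wild type of that age (n = 3) in batch 2. Batch 3 held the wild type and both lines with ADR1, ADR1-L1 and ADR1-L2 knocked out by CRISPR-Cas9, which are called Col-0 adr1s, DM1-DM2d adr1s and DM6-DM7 adr1s here (n = 3 for each), and whose own labels give no age. Each line was compared with the Col-0 group of its own batch, and between batches the knockout, the batch and any difference in age cannot be told apart. The labels do not say whether a line was 1 transformant or how many seedlings went into a sample, so the p-values measure the spread between these samples, as estimated in 1 fit shared by all groups.

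In the Arabidopsis leaf, stomata arise from protodermal cells through asymmetric divisions and a final symmetric division. The bHLH transcription factors SPCH, MUTE and FAMA act in that order: SPCH drives entry and the asymmetric divisions, MUTE ends them and specifies the guard mother cell, and FAMA limits the last division and sets guard cell identity, each in a dimer with SCRM (also known as ICE1) or SCRM2. Secreted peptides tune the number and spacing of the cells through the receptor-like protein TMM and receptor kinases of the ERECTA family: EPF2 and EPF1 restrain the lineage, and EPFL9 (STOMAGEN), made in the mesophyll, promotes it. BASL gathers at a side of the dividing cell and scaffolds a MAP kinase cascade there.

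The promoters of 4 of the genes are shown because SPCH, EPF2 and BASL had the deepest losses in DM1-DM2d and FAMA did not fall there, and because SPCH, MUTE and FAMA bind E-box motifs. Each sequence is the 250 bases before the gene start in the RefSeq annotation of TAIR10.1, 5′ to 3′ on the strand of the gene, with every CANNTG in capitals. They lie at chr5:21589256-21589505 (minus strand), chr3:8718212-8718461 (minus strand), chr1:12472618-12472867 (plus strand) and chr5:24489837-24490086 (minus strand), upstream of the transcribed region and in no other annotated gene.
SPCH: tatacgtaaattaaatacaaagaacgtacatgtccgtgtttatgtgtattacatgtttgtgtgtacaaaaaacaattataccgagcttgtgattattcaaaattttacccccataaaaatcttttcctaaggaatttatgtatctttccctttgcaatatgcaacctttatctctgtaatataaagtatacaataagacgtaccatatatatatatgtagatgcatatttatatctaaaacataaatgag
FAMA: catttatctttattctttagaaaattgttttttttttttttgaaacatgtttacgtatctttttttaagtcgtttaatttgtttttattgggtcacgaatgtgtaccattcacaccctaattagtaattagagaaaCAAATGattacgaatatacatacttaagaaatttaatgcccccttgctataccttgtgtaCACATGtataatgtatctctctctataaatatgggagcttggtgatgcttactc
EPF2: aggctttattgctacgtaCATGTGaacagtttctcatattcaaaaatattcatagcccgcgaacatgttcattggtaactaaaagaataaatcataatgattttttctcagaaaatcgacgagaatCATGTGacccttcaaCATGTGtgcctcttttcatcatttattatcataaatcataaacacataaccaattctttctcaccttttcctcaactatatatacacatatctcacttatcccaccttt
BASL: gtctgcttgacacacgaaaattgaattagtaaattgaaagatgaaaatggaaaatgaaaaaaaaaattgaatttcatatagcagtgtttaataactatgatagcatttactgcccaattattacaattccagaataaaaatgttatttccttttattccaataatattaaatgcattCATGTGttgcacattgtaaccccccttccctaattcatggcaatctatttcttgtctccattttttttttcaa
CANNTG, which is its own reverse complement, was found at 3 places in the EPF2 window, at 2 in that of FAMA, at 1 in that of BASL and at 0 in that of SPCH. Of the other windows, that of EPF1 held 2 matches and that of MUTE 1, and those of SCRM, SCRM2, TMM and EPFL9 held 0. Over all 27443 windows of the same length, 55.3% held at least 1 match, against 5 of the 10. TTGAC, the core of the W-box bound by WRKY factors, was present on either strand of 44.9% of all windows, and among the 10 at 1 place in that of BASL.

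The libraries held 48360933 to 127276992 counts each, above the sequencing depth that the labels' protocol states for a sample, and no reason is given in the sources used here. A count of 0 therefore allows a level of up to 0.024 to 0.0576 CPM, the level of 3 counts after scaling to the TMM-adjusted library total, and such limits cover counting error only. The labelled shoot tissue was checked against markers: summed over their lists, 8 photosynthesis genes stood at 1250 to 92300 CPM, 4 vascular genes at 161 to 428 CPM, and 8 root and 4 floral genes at no more than 2.65 and 4.26 CPM. Plastid transcripts took 41.8 to 42.2% of counts in Col-0 at 12 DAS, 10.4 to 11.5% in DM1-DM2d and at most 0.17% in each library of batches 2 and 3. With the organelle genes left out, as many of the 10 genes were called in each comparison of a line with Col-0 as with them. The 3 targeted genes still gave counts in the knockouts, with summed levels of 50.8 to 64.9 CPM in Col-0 adr1s, 139 to 149 CPM in DM1-DM2d adr1s and 139 to 189 CPM in DM6-DM7 adr1s, against 135 to 153 and 101 to 123 CPM in the younger and the older Col-0 and 879 to 952 and 453 to 459 CPM in DM1-DM2d and DM6-DM7. Counts per gene do not show whether an edit is present. Between 64.9 and 78% of counts below 20 were even. Whether both mates of a read pair were counted is not given in the sources used here, and if they were, a count of this size stands for fewer fragments than it shows.

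Of the 10 genes, 9 fell in DM1-DM2d and all 10 in DM6-DM7. A gene is called here when its adjusted p is below 0.05 in edgeR's quasi-likelihood test, with Benjamini-Hochberg adjustment over the 23349 genes that passed the filter on low counts, as all 10 did. In DM1-DM2d against Col-0 at 12 DAS 9 genes were called lower and FAMA higher, where 36.4% of all genes tested were called lower and 36.6% higher. In DM6-DM7 against Col-0 at 14 DAS all 10 were lower, where 29.7% of all genes were lower and 35% higher. DM1-DM2d adr1s had all 10 lower than Col-0 adr1s, where 18.8% of all genes were lower and 23.9% higher. DM6-DM7 adr1s, set against the same control libraries, had 4 lower and 6 not called, where 12.6% were lower and 18.6% higher. With other fits and thresholds, 3 to 6 of the 10 were called in DM6-DM7 adr1s, and 4799 to 9826 of all genes. The median log2 fold change of the 10 genes was -4.54, -2.28, -1.17 and -0.47 in these comparisons in turn, and the median over all genes 0.0046, 0.0616, 0.0311 and 0.0155. In these comparisons 9, 10, 10 and 8 of the 10 genes had every library of the line below every control in CPM, against 42.4, 26.8, 29.4 and 24.6% of all genes. FAMA in DM1-DM2d had every library above both controls in CPM. This separation depended on the scaling. In TPM (counts per base of exon, scaled over the nuclear genes) FAMA overlapped its controls in DM1-DM2d and DM1-DM2d adr1s, and SCRM in DM6-DM7. In DM6-DM7 adr1s MUTE, FAMA, TMM and EPF2 overlapped Col-0 adr1s in TPM, beside SPCH and BASL. Because these are whole shoots, fewer cells of a type and less RNA per cell cannot be told apart. With upper-quartile scaling each of the 10 genes kept its direction in all 4 comparisons, while the median over all genes moved to -0.297 in DM1-DM2d and -0.117 in DM6-DM7, and the split over all genes in DM6-DM7 from 8180 higher and 6944 lower to 6318 higher and 8594 lower.

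**Figure D1:**
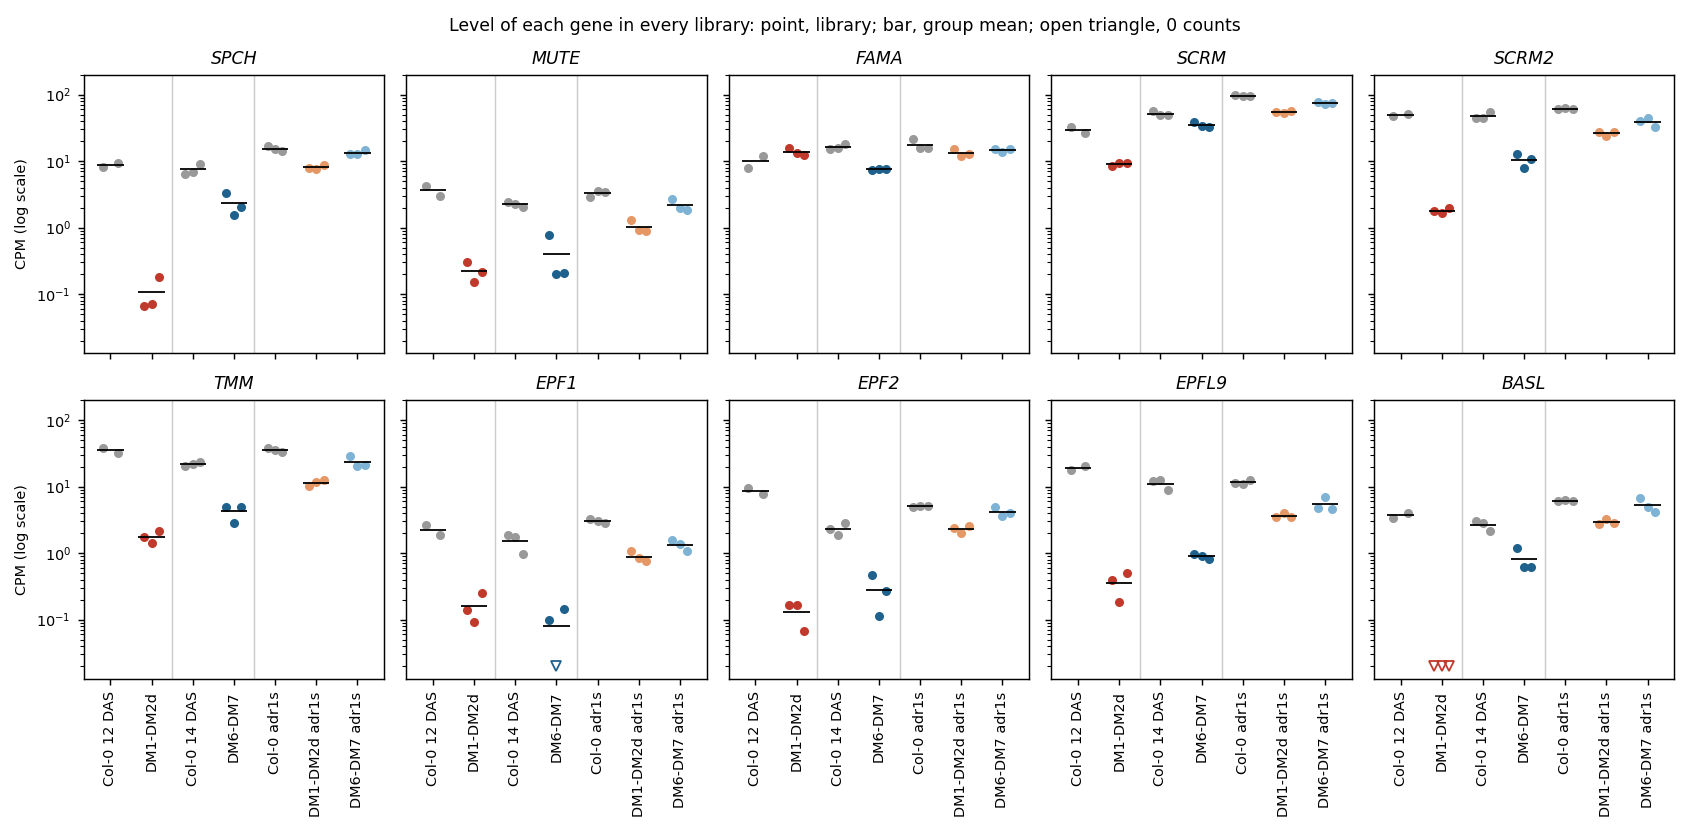
Level of the 10 genes in each of the 20 libraries, in CPM on a log axis, by group; points are libraries, bars are group means, open triangles are libraries with 0 counts, and vertical lines part the 3 batches. SPCH and BASL sit far below Col-0 in DM1-DM2d (mean 0.106 CPM, and 0 counts), while FAMA in DM1-DM2d (12.4 to 15.6 CPM) stays among the levels of the Col-0 groups.

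SPCH (AT5G53210, chr5:21586219-21589255, minus strand), which starts the lineage, was nearly lost from DM1-DM2d. Its 3 libraries held 6, 6 and 16 counts, or 0.0655, 0.0702 and 0.183 CPM, while the Col-0 libraries at 12 DAS held 547 and 590 counts, or 8.26 and 9.39 CPM. Every DM1-DM2d library was far below both controls, and the log2 fold change was -6.36 ± 0.34 (SE; adjusted p = 1.92e-11), a 82.1-fold difference. Without replicate 3, the highest of the line, the log2 fold change was -7.02. In DM6-DM7 SPCH stood at 3.31, 1.55 and 2.07 CPM, against 6.46, 6.84 and 9.18 CPM in Col-0 at 14 DAS. The groups did not overlap, and the log2 fold change was -1.70 ± 0.24 (adjusted p = 8.07e-06). Among the knockouts SPCH was at 16.7, 15.2 and 14.4 CPM in Col-0 adr1s, 7.91, 7.58 and 8.74 CPM in DM1-DM2d adr1s and 12.6, 12.6 and 14.5 CPM in DM6-DM7 adr1s. DM1-DM2d adr1s lay below the controls (log2 fold change -0.93 ± 0.23, adjusted p = 0.00351), and DM6-DM7 adr1s overlapped them (log2 fold change -0.22 ± 0.23, adjusted p = 0.519). Across the 7 groups the order of mean CPM ran from DM1-DM2d (0.106) and DM6-DM7 (2.31) through Col-0 at 14 DAS (7.49), DM1-DM2d adr1s (8.08) and Col-0 at 12 DAS (8.82) to DM6-DM7 adr1s (13.2) and Col-0 adr1s (15.4). In that order neighbours overlapped among the middle 3 groups and between the highest pair. In TPM Col-0 at 14 DAS, up to 5.379, did not overlap DM1-DM2d adr1s, from 7.112.

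MUTE (AT3G06120, chr3:1846442-1848259, plus strand), which hands the cell on to the guard mother stage, fell in both lines from low counts. DM1-DM2d gave 28, 13 and 19 counts (0.306, 0.152 and 0.217 CPM) and Col-0 at 12 DAS gave 282 and 187 (4.26 and 2.98 CPM), without overlap and with a log2 fold change of -3.99 ± 0.47 (adjusted p = 5.82e-07). In DM6-DM7 the libraries held 80, 25 and 23 counts (0.783, 0.200 and 0.205 CPM), the first well above the other two, and all lay below the 2.01 to 2.43 CPM of Col-0 at 14 DAS. The log2 fold change there was -2.50 ± 0.42 (adjusted p = 4.96e-05), and -3.53 without replicate 1 of the line. MUTE was also lower in DM1-DM2d adr1s (1.04 ± 0.222 CPM, SD, n = 3) than in Col-0 adr1s (3.27 ± 0.311 CPM, SD, n = 3; log2 fold change -1.65 ± 0.40, adjusted p = 0.00296). DM6-DM7 adr1s, at 2.68, 1.96 and 1.84 CPM, lay below the controls in each library but missed the threshold (log2 fold change -0.60 ± 0.39, adjusted p = 0.272), which it passed with batch 3 fitted alone (-0.62, adjusted p = 0.0281). The order of mean CPM ran from DM1-DM2d and DM6-DM7, which overlapped, through DM1-DM2d adr1s (1.04 CPM), DM6-DM7 adr1s (2.16 CPM) and Col-0 at 14 DAS (2.23 CPM) to Col-0 adr1s (3.27 CPM) and Col-0 at 12 DAS (3.62 CPM), with overlap within the last pair and between DM6-DM7 adr1s and its upper neighbour. In TPM Col-0 at 14 DAS (mean 3.127) stood below DM6-DM7 adr1s (mean 4.652), without overlap.

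FAMA (AT3G24140, chr3:8715118-8718211, minus strand), the last of the bHLH factors, did not fall in DM1-DM2d. The 3 DM1-DM2d libraries held 1430, 1143 and 1085 counts (15.6, 13.4 and 12.4 CPM), and the 2 Col-0 libraries, which differed from each other, held 517 and 761 (7.80 and 12.1 CPM). The lowest DM1-DM2d library lay just above the higher control in CPM. In TPM the groups overlapped, at 11.27, 9.83 and 9.293 in the line and 6.792 and 10.27 in the controls. The log2 fold change was 0.47 ± 0.18 (adjusted p = 0.0238). That call rested on few libraries: it was lost without Col-0 replicate 1 (0.13, adjusted p = 0.571), without DM1-DM2d replicate 1 (0.37), with upper-quartile scaling (0.16) and with batch 1 fitted alone (0.40). In DM6-DM7 FAMA fell to 7.34, 7.62 and 7.60 CPM from 15.0, 15.6 and 18.1 CPM in Col-0 at 14 DAS, with tight libraries in the line and no overlap (log2 fold change -1.11 ± 0.16, adjusted p = 8.75e-06). The knockouts lay closer together, at 21.6, 15.7 and 15.8 CPM in Col-0 adr1s, 15.2, 12.1 and 12.6 CPM in DM1-DM2d adr1s and 15.0, 13.7 and 15.3 CPM in DM6-DM7 adr1s. The log2 fold changes were -0.42 ± 0.16 (adjusted p = 0.0397) and -0.27 ± 0.16 (adjusted p = 0.203), and the first was lost without Col-0 adr1s replicate 1, the highest control (-0.25, adjusted p = 0.246), and without DM1-DM2d adr1s replicate 2 or 3. Of all 7 groups DM6-DM7 had the lowest mean FAMA level, 7.52 CPM, below each library of the other groups, and from the second group up every group overlapped with its neighbours in the order, up to Col-0 adr1s at 17.7 CPM.

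The balance of the 3 factors was read within each library and does not depend on how libraries are scaled. Here levels are per length, as TPM (counts per base of exon, scaled over the nuclear genes). FAMA made up 94.9, 96.7 and 94.3% of the sum of SPCH, MUTE and FAMA in the DM1-DM2d libraries. In Col-0 at 12 DAS its share was 28.4 and 40.6%, with SPCH at 32.7 and 34.3% and MUTE at 39.0 and 25.1%. All DM1-DM2d libraries stood apart from every other library, of which the highest, in DM6-DM7, had a FAMA share of 77.6%. In DM6-DM7 it was 56.8, 77.6 and 73.3%, in each library above the 53.2 to 54.6% of Col-0 at 14 DAS. Among the knockouts the share was 42.2 to 42.8% in the DM6-DM7 adr1s libraries, 51.8 to 56.1% in those of DM1-DM2d adr1s and 38.2 to 45.9% in those of Col-0 adr1s. The ratio of FAMA to SPCH was 219, 175 and 62.3 in the DM1-DM2d libraries, lowest in the library with 16 SPCH counts, and 0.868 and 1.18 in Col-0 at 12 DAS. The sum of the 3 factors was 9.85 to 11.9 TPM in DM1-DM2d and 24.0 to 25.3 TPM in its controls, and 7.31 to 9.53 TPM in DM6-DM7 and 15.7 to 17.8 TPM in its own. These shares were chosen after the values had been seen and carry no test.

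**Figure D2:**
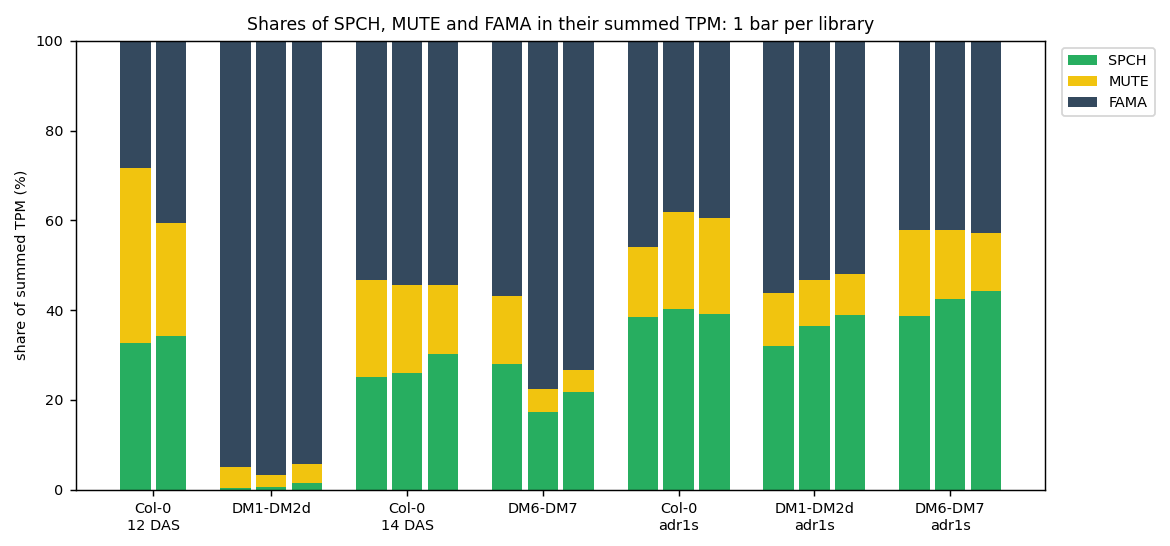
Shares of SPCH, MUTE and FAMA in the sum of their TPM, in percent, with 1 bar for each of the 20 libraries, by group. FAMA fills 94.3 to 96.7% of the bars of DM1-DM2d and 28.4 to 40.6% of those of its controls.

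SCRM (AT3G26744, chr3:9832667-9835279, minus strand) and SCRM2 (AT1G12860, chr1:4384304-4386651, plus strand), the partners that SPCH, MUTE and FAMA share, fell in every comparison of a line with Col-0. SCRM, which also acts in cold tolerance, stood in DM1-DM2d at 8.29, 9.47 and 9.44 CPM against 32.2 and 26.8 CPM (log2 fold change -1.70 ± 0.10, adjusted p = 5.56e-11). SCRM2 stood there at 1.79, 1.65 and 1.98 CPM against 47.1 and 51.8 CPM, a 27.3-fold difference (log2 fold change -4.77 ± 0.18, adjusted p = 1.99e-13). Both genes were far from overlapping with their controls. In DM6-DM7 SCRM was at 38.9, 33.1 and 32.02 CPM against 49.0 to 56.8 CPM in its controls (log2 fold change -0.58 ± 0.09, adjusted p = 2.10e-05). SCRM2 was at 12.7, 7.92 and 10.7 CPM against 44.0 to 54.3 CPM (log2 fold change -2.19 ± 0.15, adjusted p = 1.92e-09). Neither overlapped in CPM, though the SCRM groups lay close, and in TPM they overlapped. In DM1-DM2d adr1s the log2 fold changes were -0.79 ± 0.09 for SCRM and -1.24 ± 0.15 for SCRM2, and in DM6-DM7 adr1s -0.37 ± 0.09 and -0.66 ± 0.14 (adjusted p = 0.00423 and 0.00198). In CPM the SCRM level also differed between the Col-0 groups. Its means were 29.5 CPM at 12 DAS, 51.8 CPM at 14 DAS and 95.6 CPM in Col-0 adr1s, and no groups overlapped. SCRM2 was at 49.4, 47.5 and 61.6 CPM in the same groups, where the first overlapped the second. Both patterns depended on the scaling. In TPM the SCRM means were 23.89, 27.13 and 66.52, and the groups at 12 and 14 DAS overlapped. The SCRM2 means were 44.39, 27.55 and 47.75 TPM, without overlap.

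TMM (AT1G80080, chr1:30127819-30129649, minus strand), the receptor-like protein that takes part in sensing the EPF peptides, stood at 1.73, 1.43 and 2.15 CPM in DM1-DM2d and 38.0 and 32.5 CPM in Col-0 at 12 DAS. These groups lay far apart, and the log2 fold change was -4.32 ± 0.22 (adjusted p = 9.84e-12). DM6-DM7 held 4.91, 2.88 and 4.91 CPM, against 20.3, 22.2 and 23.2 CPM in its controls, also without overlap (log2 fold change -2.37 ± 0.19, adjusted p = 1.33e-08). In the knockouts TMM was at 37.5, 35.6 and 32.8 CPM in Col-0 adr1s, 10.12, 11.8 and 12.7 CPM in DM1-DM2d adr1s and 29.1, 20.6 and 21.4 CPM in DM6-DM7 adr1s. In CPM both lines lay below the controls, at log2 fold changes of -1.61 ± 0.19 (adjusted p = 3.24e-06) and -0.57 ± 0.18 (adjusted p = 0.0227). The second call was lost without DM6-DM7 adr1s replicate 2 or 3 and without Col-0 adr1s replicate 1 or 2, at -0.49, -0.51, -0.53 and -0.58.

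All 3 peptide genes fell in the autoimmune lines. EPF2 (AT1G34245, chr1:12472868-12473974, plus strand), which limits entry into the lineage, gave 15, 14 and 6 counts in DM1-DM2d (0.164, 0.164 and 0.0686 CPM) and 640 and 479 in Col-0 at 12 DAS (9.66 and 7.62 CPM). This was a 64.6-fold difference without overlap (log2 fold change -6.01 ± 0.42, adjusted p = 6.78e-10). In DM6-DM7 EPF2 gave 48, 14 and 30 counts against 232, 196 and 238, again without overlap (log2 fold change -3.05 ± 0.36, adjusted p = 9.95e-07, and -3.70 without replicate 1 of the line). EPF1 (AT2G20875, chr2:8982863-8983814, minus strand), which spaces stomata, gave 13, 8 and 22 counts in DM1-DM2d (0.142, 0.0936 and 0.251 CPM) against 174 and 118 in its controls (2.63 and 1.88 CPM), with a log2 fold change of -3.78 ± 0.61 (adjusted p = 2.28e-05). In DM6-DM7 EPF1 gave 10, 0 and 16 counts, with replicate 2 at 0, against 187, 185 and 83 in Col-0 at 14 DAS (log2 fold change -4.26 ± 0.61, adjusted p = 9.52e-06, and -5.12 without replicate 3 of the line). EPF1 and FAMA were the genes with a lower mean level in DM6-DM7 than in DM1-DM2d, and for EPF1 these 2 groups overlapped.

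EPFL9 (AT4G12970, chr4:7585869-7587099, minus strand), the peptide that promotes stomata, gave 36, 16 and 44 counts in DM1-DM2d (0.393, 0.187 and 0.503 CPM) against 1188 and 1299 (17.9 and 20.7 CPM), a 53.1-fold difference (log2 fold change -5.73 ± 0.28, adjusted p = 5.98e-12). In DM6-DM7 it gave 101, 112 and 91 counts, close to each other, against 1198, 1302 and 754 (log2 fold change -3.62 ± 0.24, adjusted p = 1.39e-09). With the ADR1 genes knocked out, EPFL9 was the peptide gene called in both lines. It stood at 3.53, 4.05 and 3.47 CPM in DM1-DM2d adr1s and at 4.74, 7.03 and 4.61 CPM in DM6-DM7 adr1s, all below the 11.5, 10.9 and 12.8 CPM of Col-0 adr1s. The log2 fold changes were -1.67 ± 0.22 (adjusted p = 1.34e-05) and -1.103 ± 0.22 (adjusted p = 0.000903). EPF1 and EPF2 were called in DM1-DM2d adr1s, at -1.77 ± 0.51 (adjusted p = 0.01) and -1.11 ± 0.32 (adjusted p = 0.00905). In DM6-DM7 adr1s EPF1 stood at 1.59, 1.36 and 1.08 CPM, below the 2.82 to 3.24 CPM of the controls in each library, without a call (log2 fold change -1.18 ± 0.50, adjusted p = 0.0872). It passed the threshold there with DESeq2, with halved counts and with batch 3 fitted alone. EPF2 was at 3.66 to 4.88 CPM against 4.97 to 5.09 CPM and was not called either (log2 fold change -0.27 ± 0.31, adjusted p = 0.556).

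BASL (AT5G60880, chr5:24488289-24489836, minus strand), the polarity factor of the asymmetric division, gave 0 counts in all DM1-DM2d libraries. The 2 Col-0 libraries at 12 DAS held 226 and 253 counts (3.41 and 4.03 CPM), so that, with 3 counts set as the limit over the whole DM1-DM2d group (0.0113 CPM), BASL was at least 328-fold lower (adjusted p = 7.91e-11). This bound would be smaller if both mates of a read pair were counted. DM6-DM7 libraries held 122, 78 and 70 counts (1.19, 0.625 and 0.624 CPM) against 302, 298 and 183 (3.02, 2.83 and 2.15 CPM), without overlap and with every library of the line well above the 3-count limit. The log2 fold change there was -1.72 ± 0.26 (adjusted p = 3.04e-05). In DM1-DM2d adr1s BASL held 189, 204 and 183 counts (2.71, 3.29 and 2.89 CPM), in each library below the 5.999 to 6.36 CPM of Col-0 adr1s (log2 fold change -1.06 ± 0.25, adjusted p = 0.00295). DM6-DM7 adr1s, at 6.76, 4.87 and 4.199 CPM, overlapped the controls (log2 fold change -0.23 ± 0.25, adjusted p = 0.535).

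**Figure D3:**
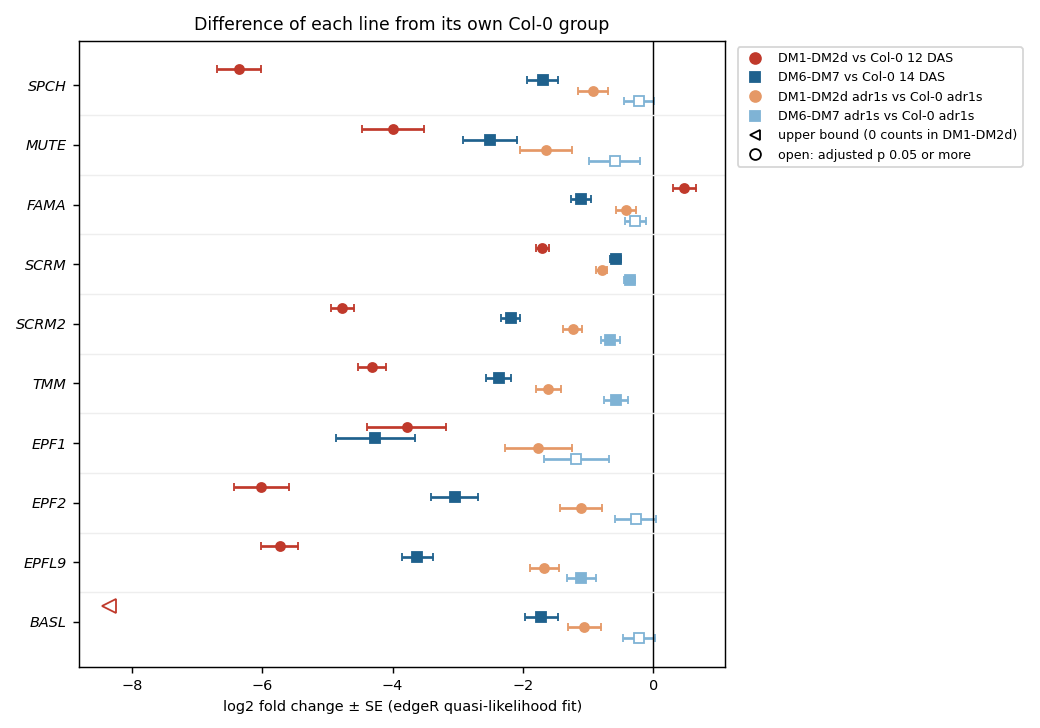
Log2 fold change ± SE of each gene in the 4 comparisons of a line with its own Col-0 group; filled symbols have an adjusted p below 0.05, and the triangle is the upper bound for BASL in DM1-DM2d, at -8.36. The values of DM1-DM2d lie farthest from 0 for 8 genes, those of DM6-DM7 for EPF1 and FAMA, and those of DM6-DM7 adr1s nearest to 0 for all 10.

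The knockout lines were compared with each other within batch 3. DM1-DM2d adr1s was below DM6-DM7 adr1s for SCRM (55.1 ± 2.26 CPM against 74.2 ± 2.17 CPM, SD, n = 3 each), with a log2 fold change of -0.43 ± 0.09 (adjusted p = 0.00628). SCRM2 was at 26.2 ± 1.94 CPM against 39.0 ± 6.50 CPM (log2 fold change -0.57 ± 0.14, adjusted p = 0.0198), and TMM at 11.6 ± 1.33 CPM against 23.7 ± 4.74 CPM (log2 fold change -1.04 ± 0.18, adjusted p = 0.00234). These 3 of 10 calls, all lower, stand beside 3.49% of all genes called lower and 5.42% higher. The call of SCRM2 was lost without DM1-DM2d adr1s replicate 2 and without DM6-DM7 adr1s replicate 1 or 2. The other 7 genes were not called, with log2 fold changes from -1.06 ± 0.40 for MUTE to -0.14 ± 0.16 for FAMA, although FAMA alone had libraries that overlapped. Over all genes, 17.6% had every library of the first line below the second. BASL was closest to the threshold (log2 fold change -0.83 ± 0.25, adjusted p = 0.0502). The number called was 8 with batch 3 fitted alone and 7 with DESeq2. Over all genes the number called also grew with these settings. It went from 815 lower and 1265 higher to 2003 and 2471 with batch 3 alone, and to 1287 and 1780 with DESeq2.

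For most of the genes the fall in an autoimmune line exceeded that in its knockout when the difference itself was tested. The DM1-DM2d effect minus the effect of the same transgenes in adr1s was called for all 10 genes, 9 lower and FAMA higher, where 32.5% of all genes were lower and 26% higher. The difference of log2 fold changes was -5.43 ± 0.42 for SPCH (adjusted p = 6.26e-09), -4.90 ± 0.52 for EPF2, -4.06 ± 0.35 for EPFL9 and -3.54 ± 0.22 for SCRM2, and -7.30 or less for BASL by its 3-count limit. SCRM had the negative difference nearest to 0 (-0.91 ± 0.13, adjusted p = 1.46e-05). FAMA had a difference of 0.89 ± 0.24 (adjusted p = 0.00364), which was lost without Col-0 replicate 1 at 12 DAS (0.59, adjusted p = 0.0513). The EPF1 difference (-2.01 ± 0.78, adjusted p = 0.0353) was lost without 1 of 7 libraries, namely DM1-DM2d replicates 1 and 2, Col-0 replicate 1 at 12 DAS, DM1-DM2d adr1s replicate 1 and any of the 3 of Col-0 adr1s. For DM6-DM7 the difference was called lower for 9 genes, where 16.3% of all genes were lower and 14.9% higher. SCRM was the exception (-0.21 ± 0.12, adjusted p = 0.214), and it was called with upper-quartile scaling (-0.38) and without DM6-DM7 replicate 1 (-0.38). The 9 called ran from -0.83 ± 0.22 for FAMA (adjusted p = 0.00863) to -3.08 ± 0.77 for EPF1 (adjusted p = 0.00607). Leaving out 1 library moved some of the called differences: SPCH in the first to -6.07 without DM1-DM2d replicate 3, and in the second MUTE to -2.93 and EPF2 to -3.42 without DM6-DM7 replicate 1, and EPF1 to -3.94 without DM6-DM7 replicate 3. Upper-quartile scaling shifted the median over all genes from -0.17 to -0.44 in the first difference and from -0.0046 to -0.17 in the second. It moved the split over all genes from 6067 higher and 7591 lower to 4613 and 9083, and from 3479 and 3799 to 2042 and 5003. These differences share the Col-0 adr1s libraries, and each crosses batches.

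The effects of the autoimmune lines differed from each other for 8 genes. The DM1-DM2d effect was the more negative for SPCH (difference -4.66 ± 0.42, adjusted p = 8.56e-08), EPF2 (-2.96 ± 0.54), SCRM2 (-2.58 ± 0.22), EPFL9 (-2.11 ± 0.35), TMM (-1.94 ± 0.28), SCRM (-1.12 ± 0.13) and BASL (-6.64 or less by its limit), where 27.2% of all genes were lower. FAMA went the other way, with a difference of 1.58 ± 0.24 (adjusted p = 2.97e-05), where 22% of all genes were higher. It was called in every alternative fit and without each of the 11 libraries in turn, at 1.33 to 1.94 in the latter. MUTE (-1.49 ± 0.61, adjusted p = 0.0525) and EPF1 (0.48 ± 0.83, adjusted p = 0.667) were not called, and MUTE passed the threshold with upper-quartile scaling (-1.59) and without DM1-DM2d replicate 1 or DM6-DM7 replicate 2 or 3, while without DM6-DM7 replicate 1, the highest of its line, its difference was -0.53, adjusted p = 0.329. Single libraries also moved the differences of SPCH (-5.31 without DM1-DM2d replicate 3), EPF2 (-2.38 without DM6-DM7 replicate 1) and EPF1 (1.28 without DM6-DM7 replicate 3, not called). The lines were harvested at different ages in different batches, so that the transgenes, the age and the batch cannot be told apart.

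**Figure D4:**
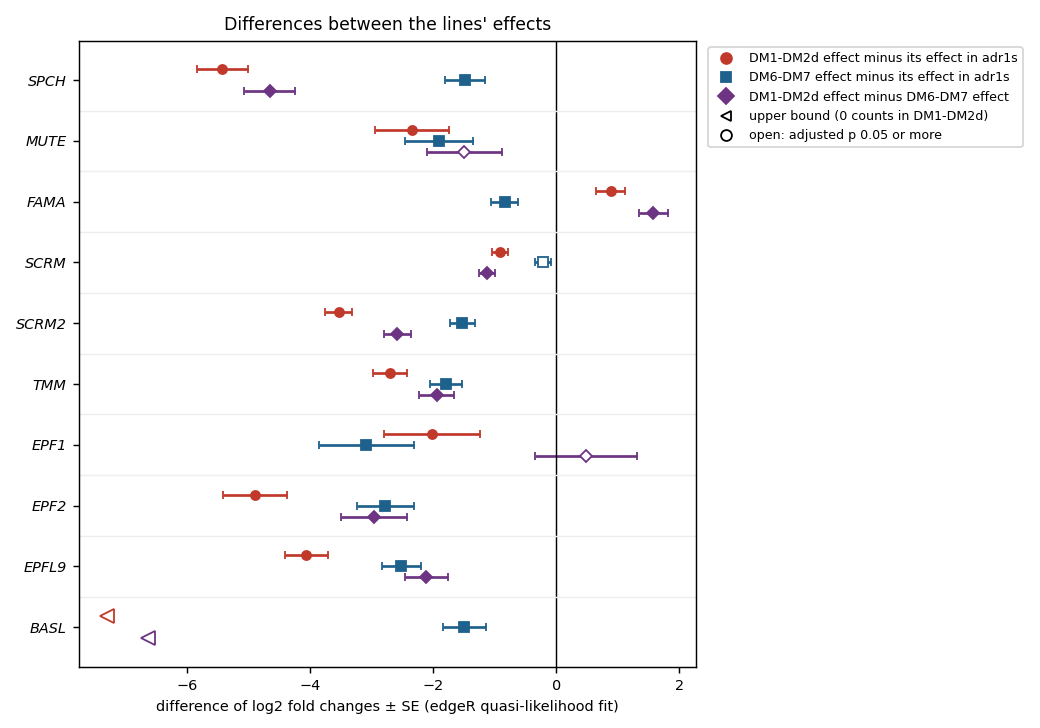
Differences between effects, as differences of log2 fold changes ± SE, for the 10 genes: each autoimmune line minus the same transgenes in adr1s, and DM1-DM2d minus DM6-DM7. Open symbols have an adjusted p of 0.05 or more. Triangles are limits for BASL, with the subtracted effect taken without its error. FAMA is the gene whose DM1-DM2d differences lie above 0 with an adjusted p below 0.05 (0.89 and 1.58).

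The genes around the 10 in the pathway were described from lists. Of 8 genes for receptor kinases and peptide processing, 6 fell and 1 rose in DM1-DM2d (median log2 fold change -2.55), 7 fell and 1 rose in DM6-DM7 (-1.52), 5 fell and 1 rose in DM1-DM2d adr1s (-0.50), and 1 rose and 0 fell in DM6-DM7 adr1s (-0.24). ERECTA, the kinase that pairs with TMM, was at -4.42 ± 0.21 in DM1-DM2d, -1.97 ± 0.18 in DM6-DM7 and -0.96 ± 0.17 in DM1-DM2d adr1s (adjusted p = 5.25e-12, 6.40e-08 and 0.000299). SDD1, a subtilisin-like protease that limits stomatal number, was at -3.45 ± 0.44 in DM6-DM7 (adjusted p = 4.51e-06) and -1.46 ± 0.40 in DM1-DM2d adr1s (adjusted p = 0.00783). BAK1, a co-receptor that also serves immune receptors, was the gene that rose, at 1.337 ± 0.09, 1.12 ± 0.08, 0.57 ± 0.08 and 0.64 ± 0.08 in the 4 comparisons in turn. The 8 genes of the other EPFL peptides were at low levels, with a sum of 3.18 to 9.96 CPM, and 1 was not tested. In DM1-DM2d 4 of them fell, with AT5G10310, a gene of this family, lowest (-4.96 ± 0.48, adjusted p = 4.80e-08). In DM6-DM7 2 fell and EPFL4 rose (1.25 ± 0.46, adjusted p = 0.0236; not called with upper-quartile scaling), in DM1-DM2d adr1s EPFL4 rose (1.42 ± 0.46, adjusted p = 0.0197), and in DM6-DM7 adr1s 0 were called. AT5G10310 was not called in DM6-DM7 (-0.801). It was called lower there with RLE scaling (adjusted p = 0.0355), upper-quartile scaling (0.0216), no organelle genes (0.0376) and DESeq2 (0.0148). With DESeq2 it was also called lower in DM6-DM7 adr1s (-0.872, adjusted p = 0.0404).

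Downstream of the receptors, the MAP kinase genes mostly rose in the autoimmune lines. For the counts below, 36.6, 35, 23.9 and 18.6% of all genes were called higher in the 4 comparisons in turn. The shares called lower were 36.4, 29.7, 18.8 and 12.6%. In their cascade, which restrains SPCH and also carries immune signals, 4 of 5 genes rose in DM1-DM2d and YDA, its MAPKKK, fell (-0.33 ± 0.08, adjusted p = 0.00118), and in DM6-DM7 4 rose and 0 fell. MKK5 was at 2.15 ± 0.13 and 1.04 ± 0.11 in these lines (adjusted p = 1.04e-10 and 2.66e-07), MKK4 at 2.06 ± 0.16 and 0.91 ± 0.14, and MPK6 at 1.24 ± 0.08 and 0.39 ± 0.07. In both knockout lines MKK4, MKK5 and MPK3 rose, MPK3 by 1.00 ± 0.14 and 1.21 ± 0.14, and YDA fell in DM1-DM2d adr1s. In DM6-DM7 adr1s YDA was not called (-0.179). It was called lower there with RLE scaling (-0.212, adjusted p = 0.0314), upper-quartile scaling (-0.227, adjusted p = 0.0173) and DESeq2 (-0.212, adjusted p = 0.0148). The 6 partners of BASL split. POLAR, made in the same dividing cells, fell in all 4 comparisons, at -3.38 ± 0.31, -2.62 ± 0.27, -1.02 ± 0.25 and -0.85 ± 0.25 (adjusted p at most 0.0157), and BRXL2, which also binds BASL, fell in the first 3 (-0.41 ± 0.16 in DM1-DM2d adr1s). The phosphatase genes BSL1, BSL2 and BSL3 and the kinase gene BIN2 rose in DM1-DM2d, BSL1 by 2.15 ± 0.18 (adjusted p = 5.13e-09). In DM6-DM7 the same 4 rose, BSL3 by 0.39 ± 0.07 (adjusted p = 5.47e-05), and with upper-quartile scaling 1 of them was called there. In the knockouts 0 of the 4 were called. Among 9 genes of guard cell fate and division 7 fell and MYB88 rose (0.43 ± 0.15, adjusted p = 0.0153) in DM1-DM2d, 6 fell in DM6-DM7, 4 fell and 1 rose in DM1-DM2d adr1s, and 3 fell in DM6-DM7 adr1s. SOL1 and TCX2, which act in the passage from SPCH to MUTE and FAMA, were at -3.70 ± 0.23 and -3.26 ± 0.23 in DM1-DM2d and at -1.72 ± 0.20 and -2.29 ± 0.20 in DM6-DM7 (adjusted p at most 7.79e-07). The rise of MYB88 in DM1-DM2d was not called with upper-quartile scaling (0.12, adjusted p = 0.479), without Col-0 replicate 1 at 12 DAS (0.296, adjusted p = 0.199) or without Col-0 replicate 2 (0.443, adjusted p = 0.0615).

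Genes of mature guard cells moved apart between the lines. Of 13 such genes 12 fell in DM6-DM7 (median log2 fold change -1.45), where 29.7% of all genes were lower. In DM1-DM2d 5 fell, 2 rose and 6 were not called (median -0.32), where 36.4% of all genes were lower and 36.6% higher. The share of the 13 that fell in DM1-DM2d was thus near that of all genes. With upper-quartile scaling the split in DM1-DM2d was 7 lower and 1 higher (median -0.629), and without Col-0 replicate 1 at 12 DAS 5 lower and 1 higher. The summed level of the list was 714 to 789 CPM in DM6-DM7 against 4110 to 5300 CPM in its controls, and 1540 to 1830 CPM in DM1-DM2d against 1900 to 2150 CPM. TGG1, a myrosinase abundant in guard cells, was at -2.32 ± 0.15 in DM6-DM7 (adjusted p = 1.43e-09) and 0.10 ± 0.17 in DM1-DM2d (adjusted p = 0.611). TGG2, its close relative, fell in both, at -7.14 ± 0.32 and -4.49 ± 0.29, as did MYB60, which acts in stomatal opening, at -1.47 ± 0.19 and -1.14 ± 0.20. ALMT12, an anion channel, rose in DM1-DM2d (1.08 ± 0.23, adjusted p = 0.000435) and was not called in DM6-DM7 (-0.02 ± 0.20). When one effect was subtracted from the other, 9 of the 13 genes were higher in DM1-DM2d and 0 lower, where 22% of all genes were higher, with differences of 2.42 ± 0.23 for TGG1 and 1.41 ± 0.22 for KAT1, an inward potassium channel. The count was 7 with upper-quartile scaling and 6 without Col-0 replicate 1 at 12 DAS. In each of the knockout lines 9 of the 13 fell, with medians of -0.59 in DM6-DM7 adr1s and -0.87 in DM1-DM2d adr1s. There 12.6 and 18.8% of all genes were lower.

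Most markers of epidermis, photosynthesis and dividing cells also fell in the autoimmune lines, and the part of other cell types in the results was not tested. For comparison, 36.4, 29.7, 18.8 and 12.6% of all genes were called lower in the 4 comparisons in turn. Of 7 epidermis genes 6 fell in DM1-DM2d, with a summed level of 119 to 133 CPM against 1320 to 1580 CPM, and 6 fell in DM6-DM7, at 538 to 714 CPM against 1600 to 1730 CPM. ATML1 and PDF2, which set epidermal identity, were at -3.14 ± 0.16 and -2.92 ± 0.13 in DM1-DM2d, and PDF2 at -1.39 ± 0.12 in DM6-DM7. In DM1-DM2d adr1s 4 of the 7 fell and LTP1, a lipid transfer protein gene, rose (0.71 ± 0.15, adjusted p = 0.000973), at a sum of 1340 to 1530 CPM against 1400 to 1550 CPM in Col-0 adr1s. In DM6-DM7 adr1s, at 1200 to 1410 CPM, 0 of the 7 were called, and LTP1, the most abundant, was at -0.06 ± 0.15. All 8 photosynthesis genes fell in DM1-DM2d, to a summed 1250 to 1530 CPM from 26200 to 28100 CPM, in DM6-DM7, to 16800 to 21100 CPM from 68800 to 92300 CPM, and in DM1-DM2d adr1s, to 23200 to 29200 CPM from 46400 to 50800 CPM, and 7 of them fell in DM6-DM7 adr1s, to 24100 to 30000 CPM. All 8 genes of dividing cells fell in DM1-DM2d, to 30.4 to 37.6 CPM from 149 to 151 CPM, and in DM6-DM7, to 42.7 to 60.0 CPM from 88.5 to 142 CPM, while 2 fell in DM6-DM7 adr1s and 5 in DM1-DM2d adr1s. Of the 4 vascular genes 2, 4, 1 and 2 fell in the 4 comparisons in turn, with median log2 fold changes of -0.512, -0.79, -0.0181 and -0.271. Of the epidermis, photosynthesis, dividing cell and vascular genes, 0 were at 0 in all libraries of a group.

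**Figure D5:**
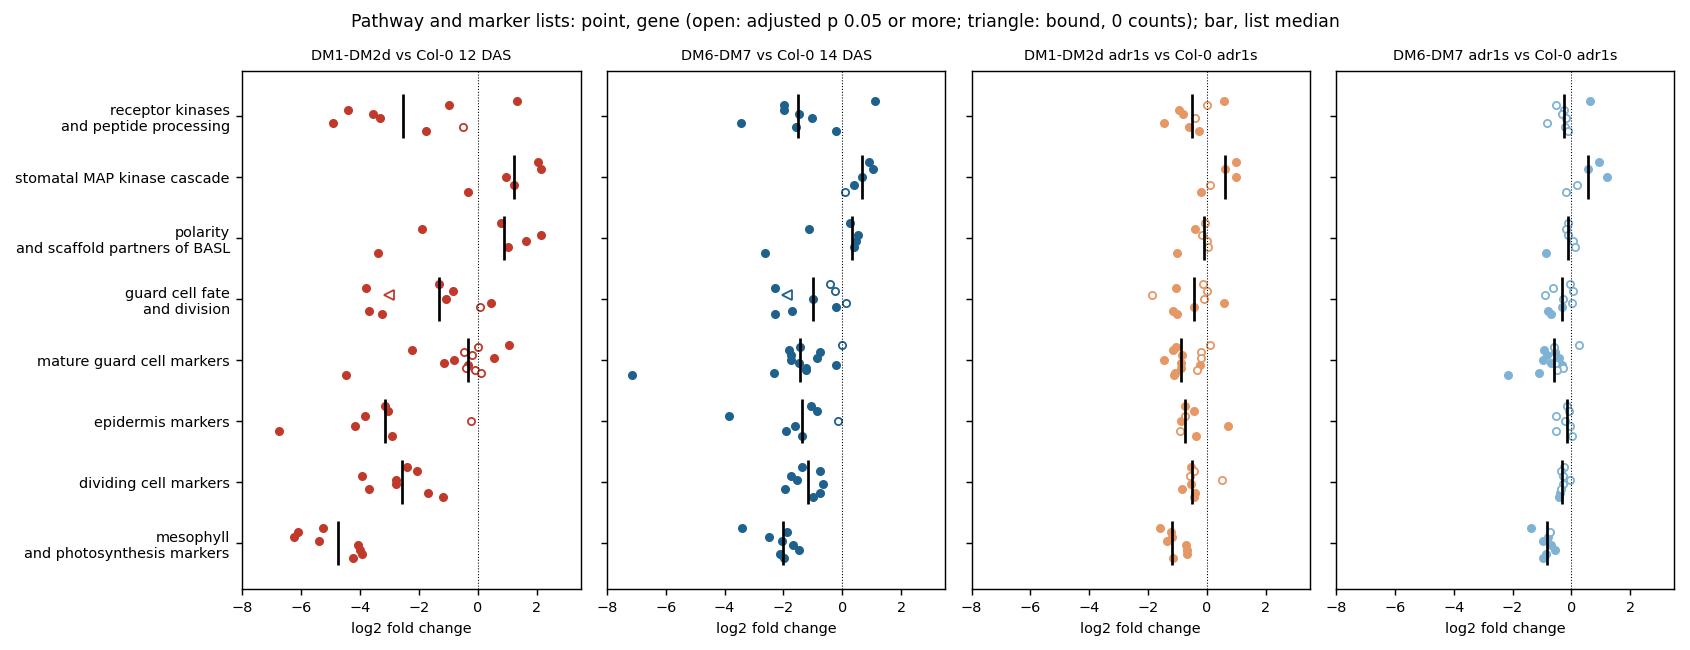
Log2 fold changes of the genes in 8 pathway and marker lists, by comparison; points are genes, open where the adjusted p is 0.05 or more, triangles are bounds for a gene with 0 counts in the line, and bars are list medians. The MAP kinase genes lie to the right of 0 in DM1-DM2d except for YDA, and the mature guard cell genes centre at -0.32 in DM1-DM2d and at -1.45 in DM6-DM7.

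The genes whose levels ran most like those of SPCH, FAMA and EPFL9 over the 20 libraries were found by Pearson correlation of log2(CPM + 0.5), given as a description because the libraries share groups and batches. For SPCH they were AT5G56040 (r = 0.989), AIR9 (0.987) and AT3G20260 (0.986), and the gene of rank 10 still reached 0.983. For EPFL9 they were AT1G33170 (r = 0.988), AT5G59970 (0.986) and IQD3 (0.982). For FAMA the highest values were lower, with AT2G40820 at 0.854, WDL1 at 0.844 and XIB at 0.841. Of these 9 genes 0 are among the 10.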

How the data were processed

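Strand-specific 150-base paired-end RNA-seq of aerial tissue was deposited for 20 libraries in 7 groups. Per the submitters' processing notes, which list tools without roles, fastp 0.23.2, HISAT2 2.2.1 and featureCounts 2.0.1 were used with the TAIR10 build, beside DESeq2 1.34.0. The values used are the raw counts per gene that the authors deposited, and whether the counting used strand is not given in the sources used here. From these counts edgeR 4.0.16 (R 4.3.3, limma 3.58.1) was run with TMM scaling, filterByExpr at a minimum count of 10, and 1 quasi-likelihood fit of all 20 libraries with a term for each group, 23349 genes, Benjamini-Hochberg adjustment per comparison and a threshold of 0.05. SE is the log2 fold change divided by the root of its F statistic. CPM values use TMM-adjusted totals. No 2 libraries agreed within counting noise, and those of Col-0 at 14 DAS differed most from each other. With batch 2 fitted alone, 11226 genes were called in DM6-DM7, against 15124 in the fit of all groups, and the 10 were among them. The alternatives were RLE and upper-quartile scaling, no organelle genes, no filter, a minimum count of 50, halved counts, an adjusted p of 0.01, fits on the batches compared, a replicate block, DESeq2 1.42.0 and leaving out each library. A fold against a group at 0 counts is a bound against 3 counts over the group. Such bounds would be smaller if both mates of a read pair were counted. The adjusted p beside a bound is that of the fitted value. Where a bound enters a difference of effects, the subtracted effect is taken without its error.

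The 10 genes and all lists were chosen with earlier results of these data known. Besides the 10, the genes named were, per list and comparison, up to 3 with the lowest adjusted p among the genes called in the commoner direction and 1 called in the rarer one, or, where none was called, the most abundant, and the 3 genes most correlated with SPCH, FAMA and EPFL9. BRXL2, and values of named genes in further comparisons, were added after the values were seen. Sequences and positions come from the RefSeq annotation of TAIR10.1.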

Additional observations from a re-analysis of the deposited data

Results flagged for a closer look

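What drew attention to each of these results was a difference between the effects of the same contrast in different groups, tested in edgeR's model over all genes. The DM1-DM2d effect was more negative than the effect of its transgenes in adr1s, with a difference of log2 fold changes of -5.43 for SPCH (adjusted p = 6.26e-09), -2.34 for MUTE (adjusted p = 0.00301), -0.91 for SCRM (adjusted p = 1.46e-05), -3.54 for SCRM2 (adjusted p = 6.06e-10), -2.70 for TMM (adjusted p = 2.46e-07), -2.01 for EPF1 (adjusted p = 0.0353), -4.90 for EPF2 (adjusted p = 3.34e-07) and -4.06 for EPFL9 (adjusted p = 2.37e-08). For BASL, which has 0 counts in DM1-DM2d, the difference was -7.298 or less by the 3-count limit (adjusted p = 8.25e-09). Here and for BASL below, the adjusted p is that of the fitted difference, and the limit takes the subtracted effect without its error. For FAMA the difference had the other sign, 0.89 (adjusted p = 0.00364).

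The DM6-DM7 effect was likewise more negative than that of its transgenes in adr1s, with differences of -1.48 for SPCH (adjusted p = 0.00267), -1.91 for MUTE (adjusted p = 0.0161), -0.83 for FAMA (adjusted p = 0.00863), -1.53 for SCRM2 (adjusted p = 4.53e-05), -1.80 for TMM (adjusted p = 8.76e-05), -3.08 for EPF1 (adjusted p = 0.00607), -2.78 for EPF2 (adjusted p = 0.000323), -2.52 for EPFL9 (adjusted p = 2.45e-05) and -1.49 for BASL (adjusted p = 0.00532). The transgenes met the ADR1 genes and their knockout in different batches in both of these comparisons.

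Between the autoimmune lines, the effect of DM1-DM2d after subtraction of that of DM6-DM7 was -4.66 for SPCH (adjusted p = 8.56e-08), -1.12 for SCRM (adjusted p = 2.22e-06), -2.58 for SCRM2 (adjusted p = 5.06e-08), -1.94 for TMM (adjusted p = 1.90e-05), -2.96 for EPF2 (adjusted p = 0.000196) and -2.11 for EPFL9 (adjusted p = 8.25e-05), -6.641 or less by the 3-count limit for BASL (adjusted p = 5.01e-08), and 1.58 for FAMA (adjusted p = 2.97e-05). FAMA is thus the gene of the 10 that fell in DM6-DM7 and not in DM1-DM2d, at 2 different ages. Groups of 2 or 3 libraries are too small for a test of single outlying libraries.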

How the results depend on the processing

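Over the 80 results for single genes, 1374 of 1430 values from other settings kept their direction and their side of the threshold, 29 lost the call, 26 gained it and 1 changed sign: the EPF1 difference between DM1-DM2d and DM6-DM7 was -0.097 without DM6-DM7 replicate 2, not called in either case, and reached 1.28 without replicate 3. Leaving out a library at a time, the number of the 10 genes called ranged from 9 to 10 in DM1-DM2d, 10 to 10 in DM6-DM7, 3 to 4 in DM6-DM7 adr1s, 9 to 10 in DM1-DM2d adr1s, 8 to 10 and 9 to 10 in the differences from adr1s, 8 to 9 between the lines and 2 to 4 between the knockout lines. The other settings moved the count beyond 1.5 times in the last of these, from 3 to 5 without organelle genes, 5 with halved counts, 8 with batch 3 fitted alone and 7 with DESeq2, and the cause was not tested. All genes called between the knockout lines numbered 2250, 2427, 4474 and 3067 in these settings in turn, against 2080. Over all genes, an adjusted p of 0.01 left 4799 of 7291 calls in DM6-DM7 adr1s, 4176 of 7278 in its difference from DM6-DM7 and 775 of 2080 between the knockout lines, where batch 3 fitted alone gave 4474 and leaving out a library 987 to 1705. Replicate numbers did not pair the samples (correlations of deviations from -0.0967 to 0.144), and the fit with the replicate number as a block changed the call of 0 of the 10 genes in the 8 comparisons, with 10, 10, 10 and 4 called in the 4 comparisons with Col-0. In the pathway lists, the calls it ended included BRXL2 in DM1-DM2d adr1s (-0.412, adjusted p = 0.0739) and MYB88 in DM1-DM2d (0.443, adjusted p = 0.0502). Counts below about 20, as for SPCH, EPF1 and EPF2 in DM1-DM2d, limit the precision of these folds. The counts of the pathway and marker lists under other settings were added after the data had been seen.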

Other observations

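Genes of trichome fate and leaf growth also changed in these libraries. Of 6 trichome fate genes 4 fell and 1 rose in DM1-DM2d, 5 fell and 1 rose in DM6-DM7, 3 fell in DM1-DM2d adr1s and 2 fell in DM6-DM7 adr1s. Of all genes, 36.4, 29.7, 18.8 and 12.6% were lower in these comparisons in turn, and 36.6 and 35% higher in the first and second. GL1 and EGL3, transcription factors that start trichomes, had 0 counts in all DM1-DM2d libraries, which made them at least 125-fold and 326-fold lower than Col-0 at 12 DAS, with 3 counts as the limit over the group. GL2, which acts after them, was at log2 fold changes of -4.04 ± 0.34 in DM1-DM2d and -4.15 ± 0.33 in DM6-DM7 (adjusted p = 1.02e-08 and 1.14e-08), and at -1.70 ± 0.30 and -1.25 ± 0.29 in the knockout lines. TTG1, a WD40 protein gene of wide expression, was the gene that rose, at 0.58 ± 0.13 and 0.44 ± 0.11 in the autoimmune lines, and was not called in either with upper-quartile scaling.

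All 6 leaf growth genes fell in both autoimmune lines, where 36.4% of all genes in DM1-DM2d and 29.7% in DM6-DM7 were lower. ANT, which promotes cell proliferation in young organs, was at -5.10 ± 0.38 in DM1-DM2d and -1.102 ± 0.28 in DM6-DM7, and GRF2, a growth-regulating factor, at -2.70 ± 0.24 and -1.13 ± 0.21. JAG, a zinc finger gene of blade growth, had 0 counts in DM1-DM2d, at least 39.5-fold lower than its controls. In DM1-DM2d adr1s GRF5 fell (-0.98 ± 0.31, adjusted p = 0.0178) and in DM6-DM7 adr1s GRF1 rose (0.56 ± 0.12, adjusted p = 0.00254), while the other 5 genes were not called in each. These counts lie near the shares of all genes, 18.8% lower in DM1-DM2d adr1s and 18.6% higher in DM6-DM7 adr1s. The summed level of the list was 8.20 to 10.9 CPM in DM1-DM2d and 42.3 to 45.4 CPM in its controls.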
